A study of Rattus norvegicus with 31 samples.

Results

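The gene described here is Ntf4 (ENSRNOG00000020783), 1 of the 11289 genes in the deposited tables, found by its gene symbol and followed over 4 groups of rats and animal by animal. Gastrocnemius, a mixed but mainly fast calf muscle, came from 31 female Sprague Dawley rats aged 7 months and fed chow. The groups were Ucp1 KO rats at 4 °C (n = 8), control rats at 4 °C (n = 8), Ucp1 KO rats at room temperature (n = 7) and control rats at room temperature (n = 8), each kept so for 14 days. The controls are called WT in the sample titles, and KO rats lack Ucp1, the uncoupling protein through which brown fat mitochondria make heat. The genotype is taken from the labels, and Ucp1 itself is not analysed here. Each animal gave 1 QuantSeq library, in which reads come from the 3' ends of polyadenylated transcripts, so that counts do not scale with transcript length. Some libraries stood apart: room temperature controls 1 and 2 on principal component 2, and 7 libraries spread over the 4 groups at the low scores of principal component 1. Ntf4 was chosen with its values in these 4 groups known. Its own levels and changes are therefore given as a description, with no test, and tests are kept for other genes and for its variation within groups.

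Ntf4 encodes neurotrophin-4, a secreted growth factor of the family that also holds BDNF and NT-3. It is made as a precursor that proteases cut to the mature form, and it signals through the receptor tyrosine kinase TrkB, which it shares with BDNF, and through the p75 neurotrophin receptor. Skeletal muscle fibres are a known source of it, and in rats its transcript has been tied to the activity of the motor nerve. At the neuromuscular junction muscle-derived neurotrophin-4 acts on the motor nerve terminal and helps to maintain the synapse.

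Ntf4 stood at 12 to 21 raw counts per library in Ucp1 KO rats in the cold, with a median of 16. In cold controls it had 19 to 38 counts (median 29). At room temperature it had 21 to 39 counts in KO rats (median 24) and 22 to 37 counts in controls (median 30.5). The cold KO animals were thus the low group on unscaled reads, although their libraries were the deepest, at 10.02 ± 1.54 M counts against 9.07 ± 0.933 M in cold controls, 9.26 ± 1.29 M in room temperature KO rats and 8.83 ± 1.13 M in room temperature controls (SD).

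After scaling by the trimmed mean of M-values (TMM), Ntf4 averaged 1.61 ± 0.277 CPM (counts relative to the scaled library size) in cold KO rats, with a lowest value of 1.30, a median of 1.58 and a highest of 2.11 CPM. In cold controls the mean was 3.20 ± 0.698 CPM, with 2.08, 3.06 and 4.50 CPM as the lowest, median and highest. KO rats at room temperature averaged 3.05 ± 0.767 CPM (lowest 2.21, median 2.71, highest 4.21), and controls at room temperature 3.57 ± 0.673 CPM (lowest 2.27, median 3.67, highest 4.29; SDs over animals). In order of the means the groups ran from cold KO through room temperature KO and cold control to room temperature control, and the last 3 lay within 1 SD of their neighbours in that order. All 8 cold KO animals lay below every room temperature animal of either genotype. This is part of the values Ntf4 was chosen on, and the share of all genes with this pattern was not counted. Against room temperature KO rats alone, 19 of 10082 genes (0.188%) lay wholly lower in cold KO rats. They overlapped cold controls in a single pair of animals: cold KO animal 24, at 2.11 CPM and 21 counts, lay just above cold control animal 22, at 2.08 CPM and 19 counts. The highest level of all was also in a cold control, animal 23.

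**Figure D1:**
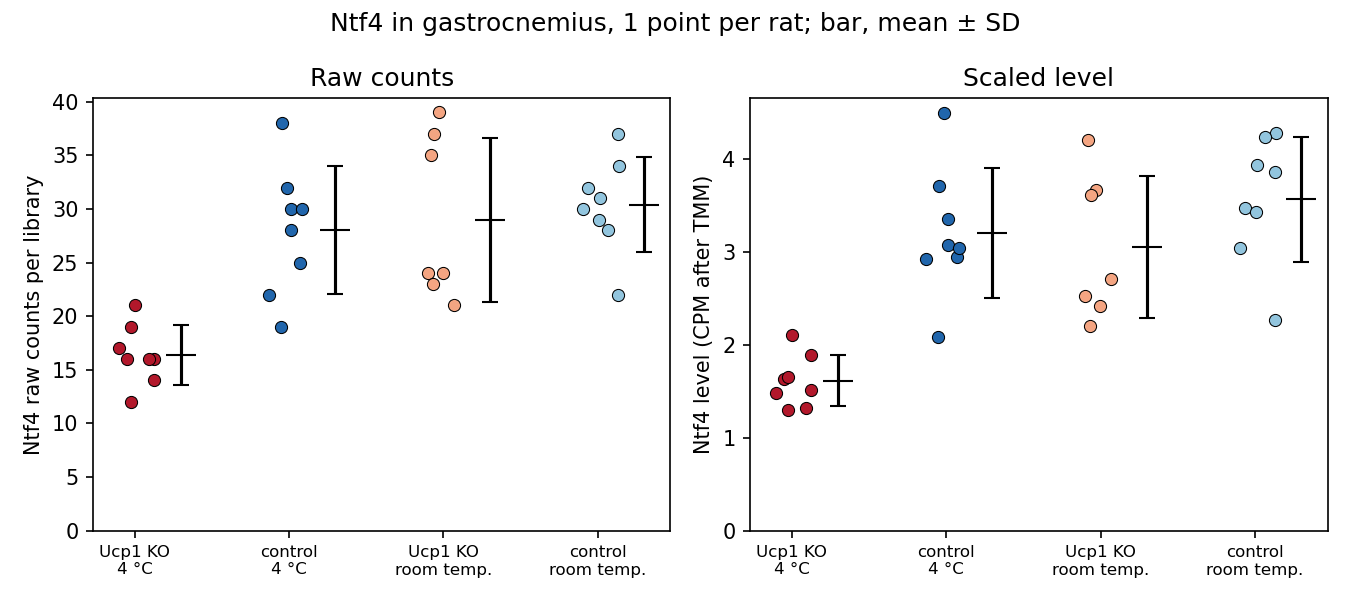
Ntf4 in each of the 31 rats as raw counts per library (left) and as CPM after TMM scaling (right), by group, with the mean ± SD as bars. The 8 Ucp1 KO rats at 4 °C run from 12 to 21 counts and from 1.30 to 2.11 CPM, and cold control animal 22 at 2.08 CPM is the 1 other animal within that CPM range.

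In the model over all animals, Ntf4 was lower in cold KO rats than in room temperature KO rats by a log2 change of -0.92 ± 0.18 (SE), a ratio of 0.529. Between cold and room temperature controls its log2 change was -0.15 ± 0.17, a ratio of 0.900. Between the genotypes the change was -0.99 ± 0.17 in the cold (KO over control, ratio 0.505) and -0.22 ± 0.17 at room temperature (ratio 0.858). The cold change in KO rats minus that in controls came to -0.77 ± 0.25. A further setting, chosen after the data were seen, left out both sets of libraries that stood apart. There the changes of Ntf4 were -1.03 for cold in KO rats, -0.15 for cold in controls and -0.90 for knockout in the cold. They were -0.01 for knockout at room temperature and -0.89 for the difference between the cold effects. Over all alternatives the change ran from -1.03 to -0.83 for cold in KO rats and from -0.31 to -0.01 for knockout at room temperature. The difference ran from -0.89 to -0.67, so this setting stood at an end of each of these ranges. In the model over all animals the low Ntf4 level was found where knockout and cold met. For cold alone or knockout alone the change was close in size to its SE. These are the values Ntf4 was chosen on, and the contrasts share groups. The medians of all 10082 genes tested were 0.02 for cold in KO rats, -0.03 for cold in controls, 0.04 for knockout in the cold and -0.03 for knockout at room temperature. Counted from the largest decrease, Ntf4 was number 106 of 10082 for cold in KO rats, 3494 for cold in controls, 25 for knockout in the cold and 2073 for knockout at room temperature.

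The background of calls sets these ranks in context. A gene counted as called when its Benjamini-Hochberg adjusted p in edgeR's quasi-likelihood fit, adjusted over all genes, was under 0.05. For cold in KO rats 139 genes were called (1.38%), 103 higher (1.02%) and 36 lower (0.357%), and for cold in controls 86 (0.853%), 60 higher (0.595%) and 26 lower (0.258%). At an unadjusted p under 0.05 there were 1444 of 10082 genes for cold in KO rats and 1434 for cold in controls. For knockout in the cold 1 gene was called (0.00992%), and it is Ntf4 itself. Ntf4 was chosen on these values, so this call is no test of it and nothing is read from that count. At an unadjusted p under 0.05 that comparison held 633 genes. For knockout at room temperature and for the difference between the cold effects edgeR called 0 genes (0%), with 712 and 737 at an unadjusted p under 0.05 and 1 each called by DESeq2. CPM values lay wholly below those of room temperature KO rats in cold KO rats for 19 genes (0.188%), Ntf4 among them. The like count was 11 genes (0.109%) for cold in controls, 1 gene (0.00992%), which was not Ntf4, for knockout in the cold and 3 genes (0.0298%) for knockout at room temperature, and 0 genes lay below all of the other 23 animals.

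Ntf4 is a low transcript in this muscle, and its depth limits what can be read from 1 animal. Its mean over all animals was 2.85 CPM, above that of 20.3% of the genes tested. The summed counts were 131 in cold KO rats, 224 in cold controls, 203 in room temperature KO rats and 243 in room temperature controls. Pooled over a group this gave 1.60 CPM (95% exact Poisson interval 1.34 to 1.90) in cold KO rats, 3.18 CPM (2.78 to 3.63) in cold controls, 3.04 CPM (2.64 to 3.49) in room temperature KO rats and 3.51 CPM (3.08 to 3.98) in room temperature controls. These intervals cover counting error only, not the spread between animals, and they are no test of the difference between groups. The spread between animals was set beside counting noise. The index of dispersion, which is 1 where animals differ only by counting noise, was 0.472 in cold KO rats, 1.25 in cold controls, 1.82 in room temperature KO rats and 1.14 in room temperature controls. The spread was thus below counting noise in cold KO rats and highest in room temperature KO rats. Of 672 genes within 0.25 log2 of its average level, 1.49% had a lower fitted biological variation than Ntf4 (coefficient 0.162). Ntf4 was chosen with its values known, and a low spread may be part of that choice, so this share is a description only.

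Beside Ntf4, the neurotrophin ligands described here are Bdnf and Ntf3. Bdnf, the other ligand of TrkB, had its highest levels in cold KO rats, but it was low and entered the test only through the cold groups. The filter on low counts asked for at least 1.08 CPM in 7 libraries, and Bdnf met that level in 5 cold KO libraries, 3 cold control libraries and 0 at room temperature, so its difference between cold and room temperature is given as values. It averaged 1.84 ± 0.907 CPM in cold KO rats, with 0.920, 1.77 and 3.47 CPM as the lowest, median and highest, against 0.649 ± 0.228 CPM in room temperature KO rats (lowest 0.303, median 0.659, highest 0.962). These groups overlapped at their edges. In controls Bdnf averaged 0.819 ± 0.510 CPM in the cold and 0.459 ± 0.283 CPM at room temperature. Its log2 change with cold was 1.50 ± 0.39 in KO rats and 0.83 ± 0.43 in controls (edgeR, adjusted p = 0.375). The difference between these changes did not pass (0.67 ± 0.60, adjusted p = 0.879). The edgeR call with cold in KO rats (adjusted p = 0.0464) is not used, because the cold groups let Bdnf into the test. Between genotypes in the cold its change was 1.17 ± 0.37 (adjusted p = 0.576). That call with cold in KO rats was also lost when any of 19 of the 31 animals was left out, with adjusted p up to 0.110. It was lost too without the 7 libraries with the lowest scores on principal component 1 (1.66, adjusted p = 0.0619) and with only the 2 groups compared (adjusted p = 0.0527). Ntf3, the ligand of TrkC, averaged 1.13 ± 0.436 CPM in cold KO rats, 0.901 ± 0.489 in cold controls, 0.900 ± 0.235 in room temperature KO rats and 0.804 ± 0.259 in room temperature controls. Its change with cold in KO rats was 0.33 ± 0.29 (adjusted p = 0.704), and it did not pass. Ntf3 too needed cold libraries to enter the test. It met the filter level in 5 cold KO, 3 cold control, 2 room temperature KO and 1 room temperature control libraries.

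Of 9 receptor genes looked for, 5 were listed and 3 were tested, and 0 of the 3 passed in any comparison, with edgeR, with DESeq2 or at an unadjusted p under 0.05. Ntrk2, which encodes TrkB, averaged 4.84 ± 1.34 CPM in cold KO rats, 5.03 ± 1.38 in cold controls, 5.62 ± 2.18 in room temperature KO rats and 4.97 ± 1.72 in room temperature controls. Its groups overlapped throughout, and its change was -0.20 ± 0.24 with cold in KO rats (adjusted p = 0.800) and -0.05 ± 0.23 with knockout in the cold (adjusted p = 0.991). Sort1, which encodes sortilin, a co-receptor of p75 for uncut neurotrophins, averaged 40.8 ± 14.1 CPM in cold KO rats, 37.8 ± 7.29 in cold controls, 33.9 ± 11.1 in room temperature KO rats and 34.1 ± 5.55 in room temperature controls (cold in KO rats 0.27 ± 0.19, adjusted p = 0.588). Sorcs2, a relative of sortilin, averaged under 1 CPM in every group (cold in KO rats 0.24 ± 0.39, adjusted p = 0.868). It met the filter level in 3 cold KO, 4 cold control, 2 room temperature KO and 1 room temperature control libraries, so it too needed cold libraries. Ntrk3 and Ngfr, which encode TrkC and p75, were too low to test, with 41 and 38 counts summed over the 8 cold KO rats.

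**Figure D2:**
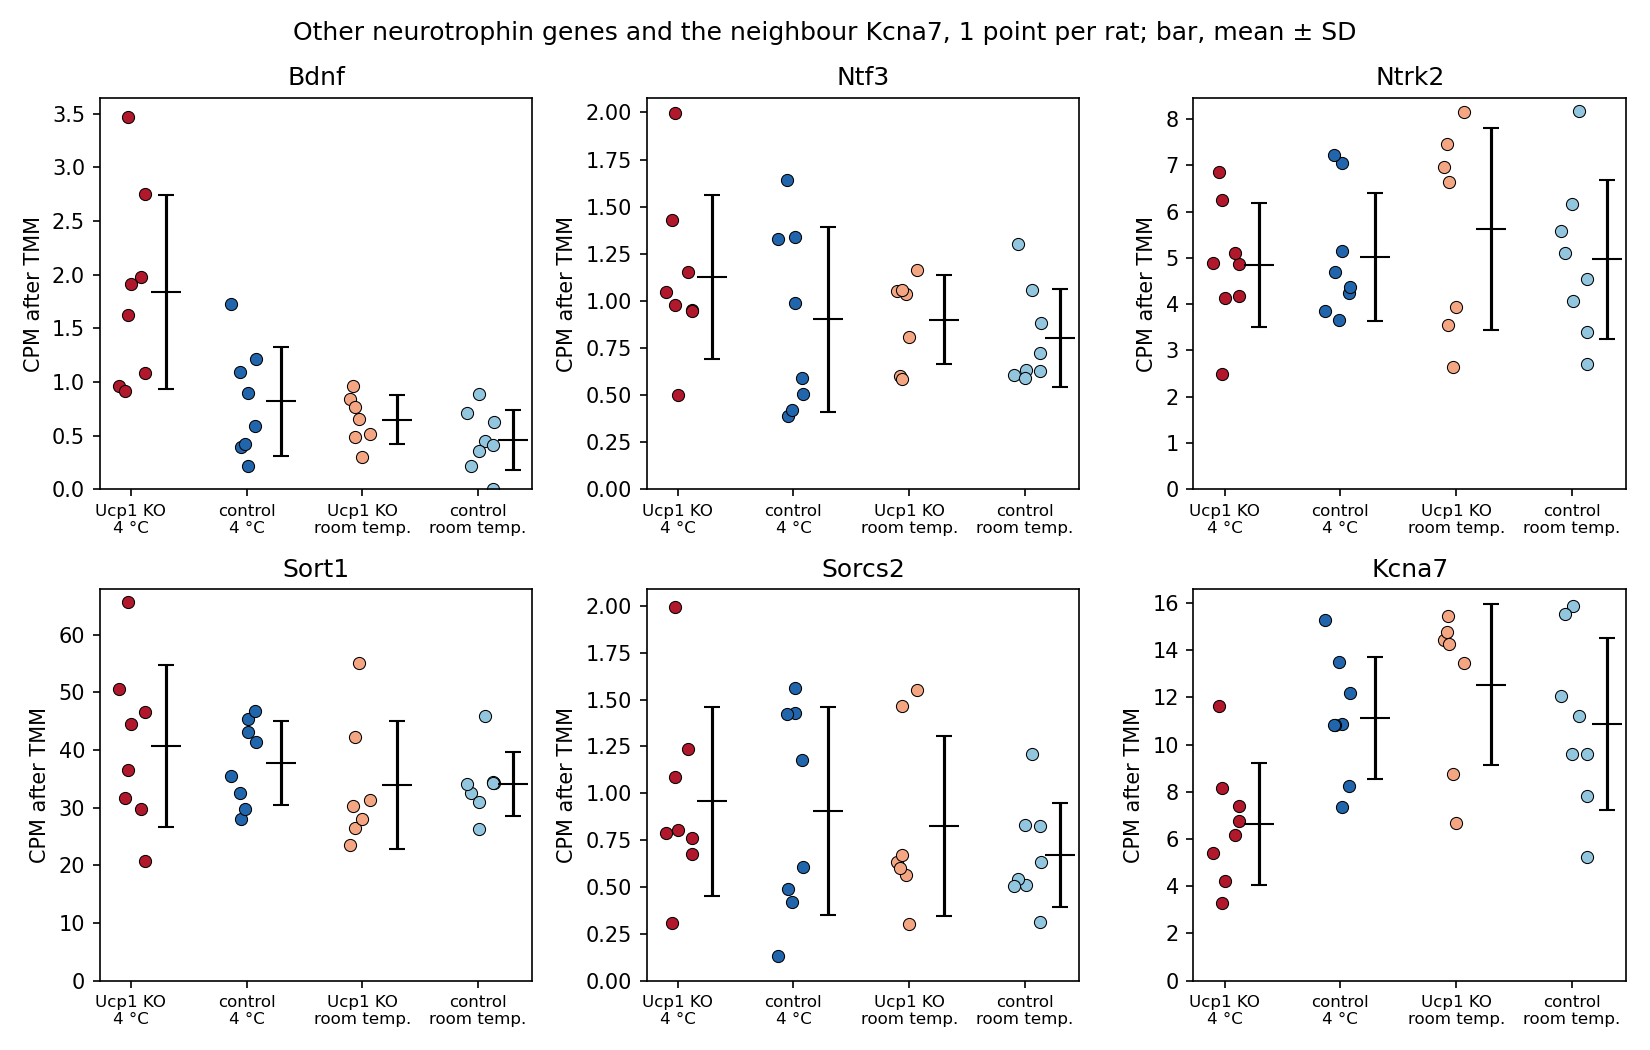
CPM after TMM of the tested ligands Bdnf and Ntf3, the receptor genes Ntrk2, Sort1 and Sorcs2 and the neighbouring gene Kcna7 in each rat, by group, with the mean ± SD as bars; each panel has its own scale from 0. Bdnf is highest in Ucp1 KO rats at 4 °C (mean 1.84 CPM), Kcna7 is lowest there (mean 6.63 CPM), and Ntrk2 overlaps in all groups.

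Across ligands, receptors, precursor processing and signalling through Trk and p75 receptors, 124 genes were looked for beside Ntf4, 88 were listed and 82 passed the filter on low counts. For cold in KO rats 1 of the 82 passed in the higher direction and 1 fell (2.44%, against 1.38% of all genes tested). The higher one was Bdnf, which met the filter only through the cold groups and supports nothing here. At an unadjusted p under 0.05 there were 17 of the 82, against 1444 of all 10082 genes. The median change was 0.07 against 0.02 over all genes. The gene that fell was Sos1, whose protein links activated receptor tyrosine kinases to Ras. Sos1 averaged 7.96 ± 0.742 CPM in cold KO rats and 11.5 ± 0.917 CPM in room temperature KO rats, a change of -0.53 ± 0.11 (adjusted p = 0.0089), with 8.90 ± 1.65 CPM in cold controls and 9.64 ± 0.873 CPM in room temperature controls. For cold in controls 1 of 82 fell and 0 rose, with a median of 0.01; it was Jun, a transcription factor downstream of p75 and of many other stimuli (-0.65 ± 0.16, adjusted p = 0.0476). The call of Jun was lost when any of 22 of the 31 animals was left out (adjusted p up to 0.106), without the libraries that stood apart and with only the 2 groups compared (adjusted p = 0.0561). For knockout in the cold 0 of 82 passed, with 7 at an unadjusted p under 0.05 and 0 by DESeq2. For knockout at room temperature and for the difference between the cold effects it was also 0, with 8 and 9 at an unadjusted p under 0.05 and 0 by DESeq2.

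Of the 7 tested genes that cut or control the cutting of neurotrophin precursors, 0 passed for cold in KO rats, with 2 at an unadjusted p under 0.05 and 0 by DESeq2. Among them Furin, a protease that cuts precursors in the secretory path, had 0.29 ± 0.13 (adjusted p = 0.294). Of 40 tested genes of Trk signalling only Sos1 passed in that comparison, and the kinase gene Gsk3b had -0.61 ± 0.20 (adjusted p = 0.116). Of 30 tested genes of p75 signalling 0 passed, with 9 at an unadjusted p under 0.05 (1444 of all 10082 genes) and 2 lower by DESeq2. Among them Nfkb1, a subunit of NF-kappaB, had -0.47 ± 0.14 (adjusted p = 0.0698) and the GTPase gene Cdc42 had -0.34 ± 0.10 (adjusted p = 0.0778). Among 24 tested genes of other trophic factors, Cdnf, which encodes a neurotrophic factor of the endoplasmic reticulum, rose with cold in KO rats (0.36 ± 0.09, adjusted p = 0.0436), a call lost when any of 15 animals was left out (adjusted p up to 0.110).

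The nearest gene to Ntf4 that was measured, Kcna7, fell with it in cold KO rats. Kcna7 encodes a voltage-gated potassium channel of skeletal muscle and heart. In the RefSeq genes of assembly GRCr8, Ntf4 lies on the plus strand at chr1:105030035-105032866 and Kcna7 at chr1:105022549-105028041, with 1993 bases between them. Kcna7 averaged 6.63 ± 2.58 CPM in cold KO rats (lowest 3.30, median 6.46, highest 11.6), against 12.5 ± 3.41 CPM in room temperature KO rats (lowest 6.66, median 14.3, highest 15.5). It averaged 11.1 ± 2.58 CPM in cold controls and 10.9 ± 3.64 CPM in room temperature controls, and all 4 groups overlapped. Its change with cold was -0.92 ± 0.24 in KO rats (edgeR, adjusted p = 0.0414) and 0.04 ± 0.23 in controls (adjusted p = 0.955). The difference between these did not pass (-0.96 ± 0.33, adjusted p = 0.538), nor did knockout in the cold (-0.75 ± 0.23, adjusted p = 0.576). The call for cold in KO rats was lost when any of 11 of the 31 animals was left out (adjusted p up to 0.0848) and with only the 2 groups compared (adjusted p = 0.111).

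Ntf4 and Kcna7 stood low in the same group, and their relation within groups was looked at too. Ntf4 varied within groups about as counting noise does (index of dispersion 0.472 to 1.82). A low r therefore cannot show whether the 2 genes move in step. With group means removed, their log2 levels had r = -0.05 and rho = -0.07 over the 31 rats (permutation within groups, p = 0.781, adjusted p = 0.838 over 8 relations), and r was 0.04 without the 2 rats farthest from the median of Kcna7. The ratio of Ntf4 to Kcna7 counts was 0.284 ± 0.142 in cold KO rats, 0.300 ± 0.0897 in cold controls, 0.263 ± 0.101 in room temperature KO rats and 0.373 ± 0.184 in room temperature controls, and it overlapped in all groups. The strand setting of the counting is not stated, so reads of overlapping genes could not be told apart; the 2 genes do not overlap in GRCr8.

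**Figure D3:**
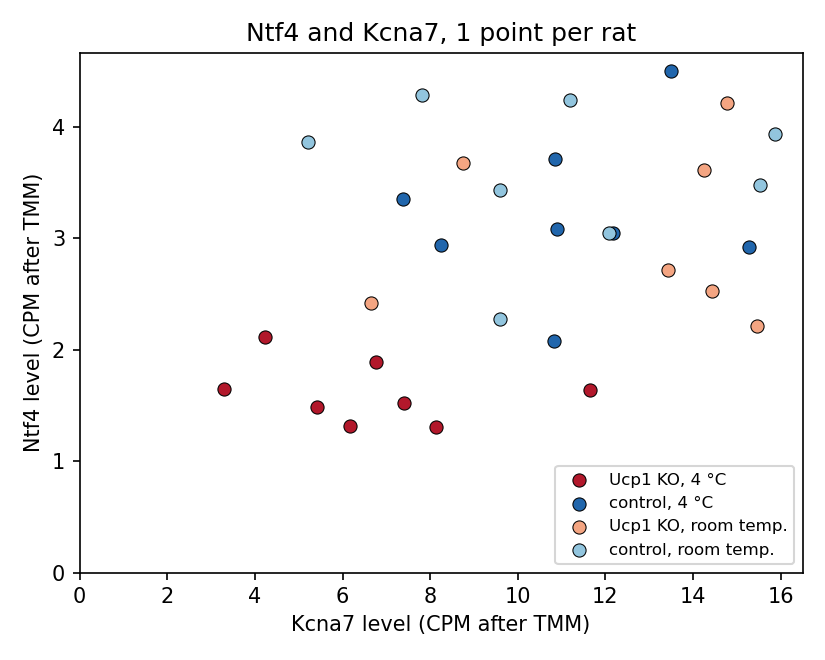
Ntf4 level against Kcna7 level (CPM after TMM on both axes), 1 point per rat, coloured by group. Ucp1 KO rats at 4 °C lie in the lower left, at 1.30 to 2.11 CPM of Ntf4 and 3.30 to 11.6 CPM of Kcna7, and within groups the points show no common slope (r = -0.05 with group means removed).

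The stretch upstream of Ntf4, shown because it lies between the 2 genes that were low together, is the RefSeq promoter window of assembly GRCr8 at chr1:105029785-105030084 on the plus strand, from 250 bases before the start of Ntf4 to 50 after it. Capitals mark the GC box.
Ntf4 promoter: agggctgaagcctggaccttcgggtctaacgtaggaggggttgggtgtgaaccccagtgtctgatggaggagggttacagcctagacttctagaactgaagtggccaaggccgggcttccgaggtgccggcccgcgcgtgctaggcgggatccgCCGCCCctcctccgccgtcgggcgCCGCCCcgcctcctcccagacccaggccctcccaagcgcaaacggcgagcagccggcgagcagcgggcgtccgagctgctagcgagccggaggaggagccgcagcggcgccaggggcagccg
The window was 71.0% G or C, more than 93.0% of 33469 rat promoter windows of this length, and it held 31 CG pairs. The GC box GGGCGG, searched on both strands, was found 2 times, both as CCGCCC; 33.1% of the promoter windows hold it. The other motifs searched were the E-box CANNTG, held by 72.1% of windows, the cyclic AMP response element half-site TGACG (21.2%), the AP-1 site TGANTCA (7.33%) and the TATA box TATAAA (14.2%). None of these letters was found in the Ntf4 window on either strand.

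The next measured genes on either side had changes with cold in KO rats between -0.10 and 0.30. Before Ntf4, the splicing factor gene Snrnp70 had 0.12 ± 0.18 (adjusted p = 0.853), the calcium-binding Hrc 0.08 ± 0.19 (adjusted p = 0.917) and the cation channel gene Trpm4 0.09 ± 0.22 (adjusted p = 0.919). After Ntf4, Ruvbl2, which begins 5620 bases beyond its end, had -0.10 ± 0.12, and the muscle glycogen synthase gene Gys1 had 0.30 ± 0.26. Bax had -0.05 ± 0.26, Nucb1 0.24 ± 0.20 and Plekha4 0.20 ± 0.17, and none of these passed. Cd37 was too low to test.

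**Figure D4:**
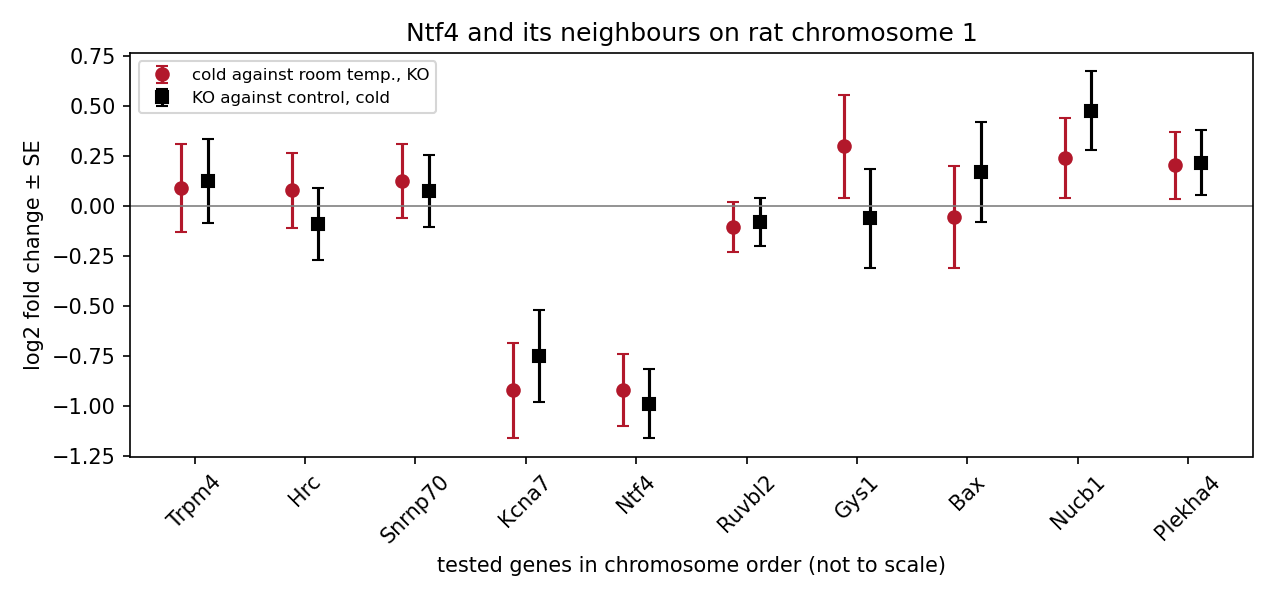
Log2 fold change ± SE of Ntf4 and its measured neighbours in their order along chromosome 1, for cold against room temperature in Ucp1 KO rats (circles) and for KO against control rats in the cold (squares). Kcna7 (-0.92 and -0.75) and Ntf4 (-0.92 and -0.99) lie below -0.5, and the other genes lie between -0.25 and 0.5.

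Genes of the nerve contact and of muscle activity, the setting in which Ntf4 is best known, were described beside it. Of 22 tested neuromuscular junction genes and of 16 tested genes of the denervation response, only Chrnd, which is in both lists, passed for cold in KO rats. At an unadjusted p under 0.05 there were 8 junction and 7 denervation genes (1444 of all 10082 genes), and DESeq2 called 1 and 4, all higher. For cold in controls edgeR called 2 denervation genes, Chrnd and Myh3 (log2 change 2.23), with 9 at an unadjusted p under 0.05 (1434 of all 10082 genes). Chrnd, the delta subunit of the acetylcholine receptor, is a gene that denervated muscle is known to raise. It rose to 115 ± 64.4 CPM in cold KO rats, against 37.7 ± 11.6 CPM in room temperature KO rats (1.61 ± 0.28, adjusted p = 0.0019), and to 77.6 ± 22.7 CPM in cold controls, against 34.1 ± 8.35 CPM in room temperature controls (1.19 ± 0.27, adjusted p = 0.0251). The call in controls was lost when either of 2 animals was left out (adjusted p up to 0.0572). Chrnd's difference between the cold effects did not pass (0.42 ± 0.38, adjusted p = 0.881). Ache, the acetylcholinesterase, had -0.87 ± 0.28 in KO rats (adjusted p = 0.107). In the contraction list 0 of 18 tested genes passed for cold in KO rats, with 4 at an unadjusted p under 0.05 and 1 by DESeq2. In controls Fos, Egr1 and Jun fell with cold. Fos had -2.09 ± 0.44 (adjusted p = 0.0145) in controls and -1.04 ± 0.43 (adjusted p = 0.235) in KO rats. For the difference between the cold effects 0 of the 18 passed, with 2 at an unadjusted p under 0.05 and 0 by DESeq2. For knockout in the cold 0 of the 18 passed too, with 2 at an unadjusted p under 0.05 and 0 by DESeq2. In that comparison 17 of them had changes above 0, with a median of 0.43 against 0.04 over all genes. The call of Egr1 (adjusted p = 0.0476) was lost when any of 20 of the 31 animals was left out (adjusted p up to 0.109) and in 5 of 8 other alternatives.

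Of 13 tested slow fibre genes, 4 rose with cold in KO rats and 9 did not pass, with a median change of 0.70, and 5 rose in controls and 8 did not pass, with a median of 0.65. Among these calls, Tnni1 in KO rats was lost when any of 3 animals was left out (adjusted p up to 0.0789) and in 1 of 8 other alternatives, and Atp2a2 in KO rats with 1 animal left out (adjusted p up to 0.0573) and in 1 other alternative. Tnnt1 in controls was lost with any of 10 animals left out (adjusted p up to 0.0851) and in 4 other alternatives. For knockout in the cold, where Ntf4 differed by -0.99, 0 of the 13 passed, with 0 at an unadjusted p under 0.05 and 0 by DESeq2, and their median was -0.03. Myh7, the slow myosin heavy chain, averaged 3989 ± 907 CPM in cold KO rats and 4430 ± 647 CPM in cold controls (-0.15 ± 0.15, adjusted p = 0.977). Of 17 tested fast fibre genes, Kcna7 alone passed for cold in KO rats. For knockout in the cold 0 of the 17 passed, with 3 at an unadjusted p under 0.05 and 0 by DESeq2; all 17 had changes below 0, with a median of -0.24 against 0.04 over all genes.

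In bulk muscle, fewer cells of a type and less RNA per cell cannot be told apart. The muscle identity markers summed to 88167 to 129483 CPM in cold KO rats, 118481 to 144070 in cold controls, 91647 to 117442 in room temperature KO rats and 91979 to 131140 in room temperature controls, so the defining genes of the labelled tissue were abundant in every library. Of 13 tested Schwann cell and nerve genes 0 passed for cold in KO rats, with 1 at an unadjusted p under 0.05 and 1 by DESeq2. Their sum over 17 listed genes had medians of 263 CPM in cold KO rats, 230 in cold controls, 253 in room temperature KO rats and 303 in room temperature controls. Of 10 tested white adipocyte markers 1, Retn, rose with cold in KO rats (2.41 ± 0.54, adjusted p = 0.0169) and 9 did not pass, with a median of 1.13. The Retn call was lost with 1 animal left out (adjusted p = 0.0573). For knockout in the cold, where Ntf4 differed most, 0 of the 10 passed, with 5 at an unadjusted p under 0.05 and 0 by DESeq2; all 10 had changes above 0, with a median of 0.77 against 0.04 over all genes. In that comparison 0 of 10 muscle identity genes passed, with 2 at an unadjusted p under 0.05 and 0 by DESeq2; 9 of them had changes below 0, with a median of -0.23. The adipocyte sum ran from 1292 to 3765 CPM in cold KO rats, 925 to 3045 in cold controls, 796 to 1686 in room temperature KO rats and 444 to 2639 in room temperature controls. For cold in KO rats 1 of 16 tested immune genes rose (Cd163, 1.02 ± 0.21, adjusted p = 0.0089) and 1 of 5 satellite cell genes (Sdc4, 0.73 ± 0.17, adjusted p = 0.0198). The Sdc4 call was lost with any of 3 animals left out (adjusted p up to 0.0673) and in 2 of 8 other alternatives. Of 10 endothelial, 8 fibroblast and 9 smooth muscle and pericyte genes 0 passed for cold in KO rats. In each list 1 had an unadjusted p under 0.05, and DESeq2 called 1 endothelial gene. The part of these markers in the Ntf4 difference was not tested.

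Within groups, Ntf4 passed the adjusted threshold with none of 8 measures (r and rho of deviations from group means over 31 rats, two-sided permutation within groups, Benjamini-Hochberg over the 8). The nearest was Adipoq, the adipocyte hormone, with r = -0.37 (p = 0.0357, adjusted p = 0.286) and rho = -0.35 (p = 0.0355). Its r was -0.43 without the 2 rats farthest from its median, control animals 1 and 2 at room temperature. In the cold KO rats alone Adipoq had r = -0.61 and in the cold controls -0.26, each over 8 rats and not tested. For Myh7 r was -0.26 (adjusted p = 0.443), for Chrnd -0.24 (adjusted p = 0.443) and for Fos -0.13 (adjusted p = 0.838). Ntrk2 and the first principal component had r = -0.04 each (adjusted p = 0.838 each). Because Ntf4 varied within groups about as counting noise does, a low r here does not show that a relation is absent.

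Over all 31 rats the genes most like Ntf4 in log2 level, among 6685 with a mean of at least 5 CPM, were led by Myoz1, a Z-disc protein of fast fibres, with r = 0.74 and rho = 0.78. These values are a description, since they partly rest on the low cold KO group and all share the same libraries. Myoz1 averaged 1162 ± 243 CPM in cold KO rats, 1445 ± 68.1 in cold controls, 1479 ± 190 in room temperature KO rats and 1847 ± 482 in room temperature controls. With group means removed its r was 0.48 (number 6 of 6685). Myoz1 and the genes below were chosen on r over all rats, which includes these deviations. A kept sign is therefore partly fixed by the choice. Next came Pds5b, a regulator of cohesin (r = 0.73), and Mss51, a mitochondrial gene of fast muscle (r = 0.70), with 0.35 and 0.30 once group means were removed. Mss51 averaged 111 ± 47.7 CPM in cold KO rats, 175 ± 39.9 in cold controls, 260 ± 53.2 in room temperature KO rats and 267 ± 30.8 in room temperature controls. The other 5 were Ppp2r3a (0.68), Ehbp1 (0.67), Mrpl23 (0.66), Rai14 (0.65) and Mt-nd3 (0.65).

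Least like Ntf4 were Hmox1, the heme-degrading enzyme (r = -0.74), Agt, which encodes angiotensinogen (-0.71), the chromatin remodelling subunit gene Smarcd2 (-0.69) and the macrophage scavenger receptor gene Cd163 (-0.68). Hmox1 averaged 38.5 ± 21.5 CPM in cold KO rats, 17.5 ± 3.83 in cold controls, 17.3 ± 4.62 in room temperature KO rats and 13.4 ± 3.30 in room temperature controls. Agt averaged 22.7 ± 10.02 CPM in cold KO rats, 11.2 ± 3.75 in cold controls, 7.04 ± 2.34 in room temperature KO rats and 6.46 ± 3.98 in room temperature controls. Both were highest in the group where Ntf4 was lowest. Over all 6685 genes r ran from -0.42 at the 5th percentile to 0.40 at the 95th. Kcna7 was number 172 (r = 0.47).

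**Figure D5:**
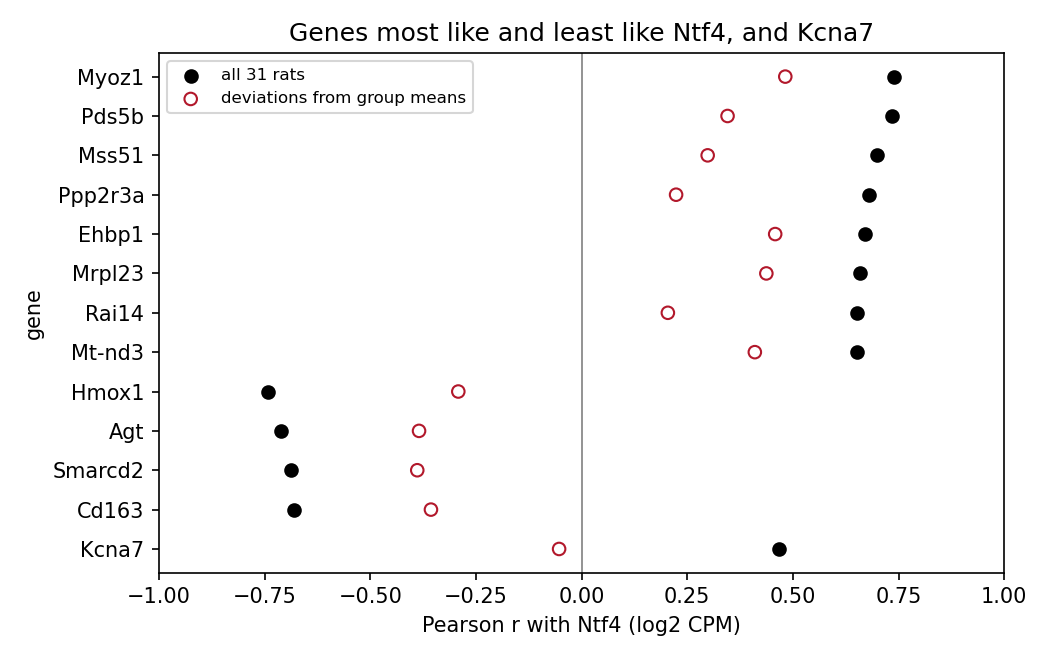
Pearson r with Ntf4 of log2 CPM for the 8 most like genes, the 4 least like and Kcna7, over all 31 rats (filled) and for deviations from group means (open). All 12 chosen genes keep their sign with group means removed but lie nearer 0, and Kcna7 goes to -0.05. The 12 were chosen on r over all rats, which includes the deviations, and Kcna7 was not. Their kept sign and their move towards 0 are therefore partly fixed by the choice.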

How the data were processed

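Ntf4 was measured in 31 muscle libraries. The deposited tables hold raw counts of reads per gene, made by the authors, and normalized values, a signal that equals the authors' counts over 1 size factor per library to within 5.23e-10. The submitters' processing notes name Rnor 6.0 and DESeq2 1.22.2. For the aligner, the counter and the strand setting, the answer is not given in the sources used here. Symbols come from the deposited table, and 770 of 11289 genes lacked one. Positions and sequence are RefSeq's, assembly GRCr8. Depth was 6.56 to 11.9 M counts per library. Since the labels number each animal, p-values measure the spread between animals; reads carry no known molecular identifiers, so intervals cover counting error only. Of 105 pairs of libraries within groups, none matched to sampling noise (chi-square over its degrees of freedom at least 5.00).

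Counts were tested with edgeR 4.0.16 (R 4.3.3): TMM, filterByExpr (minimum count 10, minimum total 15, 10082 genes), a quasi-likelihood fit with 1 mean per group over all libraries, 27 residual degrees of freedom and Benjamini-Hochberg over all genes, threshold 0.05. The fit was tested on simulated data. SE was taken as the change divided by the root of F. Correlations use log2 CPM with a prior count of 2, with 100000 permutations. Alternatives were DESeq2 1.42.0, other scaling, no filter, a covariate and left-out libraries. Genes named are Ntf4; every tested ligand and receptor; of each other list up to 4 passing members by p or else the 1 or 2 with the smallest p, of which those bearing on Ntf4 are printed; the 8 most and 4 least alike, also within groups; the 5 nearest listed genes on each side; and the genes of the fixed relations. The members and lists were chosen with earlier results of these data known. The contraction, nerve and cell marker lists are given as counts. Ucp1 is not analysed here, and a few genes that the rule names, 1 of the 8 relations among them, are not reported here.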

Additional observations from a re-analysis of the deposited data

Results flagged for a closer look

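Sort1, the sortilin gene, had 46.0 CPM in control animal 3 at room temperature, while the next of the 8 room temperature controls had 34.4 CPM. The gap took 0.587 of the range of the group, above Dixon's critical value of 0.526 for 8 samples. It was the 1 such value among 28 groups of animals looked at, and chance gives about 1 in 20.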

How the results depend on the processing

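No paired analysis was possible because each animal has its own number, so no number is shared between groups. Under every alternative the Ntf4 changes kept their direction, from -1.03 to -0.83 for cold in KO rats, -1.06 to -0.90 for knockout in the cold and -0.23 to -0.08 for cold in controls, -0.31 to -0.01 for knockout at room temperature and -0.89 to -0.67 for the difference between cold effects. The counts of calls moved more. For cold in KO rats (139 genes, 2 pathway members) they were 322 and 4 with DESeq2, 674 (396 higher, 278 lower) and 7 with principal component 1 as a covariate, 379 and 4 without room temperature controls 1 and 2, 53 genes with only the 2 groups compared, 1 pathway member without the 7 libraries, 387 and 4 without both sets (chosen after the data were seen), and 56 to 231 and 1 to 4 leaving out 1 animal. For cold in controls (86 and 1) they were 219 and 2 with DESeq2, 379 (160 higher, 219 lower) and 7 with the covariate, 38 and 0 without controls 1 and 2, 53 and 0 without the 7 libraries, 0 pathway members with no filter, with only the 2 groups or without both sets, and 36 to 154 and 0 to 2 leaving out 1 animal. For knockout in the cold (1 and 0) they were 6 with DESeq2, 8 and 1 with the covariate, 4 without controls 1 and 2, 0 without the 7 libraries, with only the 2 groups or without both sets, and 0 to 3 leaving out 1 animal. The 1 gene of the main fit was Ntf4, so these counts are no test of it. For knockout at room temperature and for the difference DESeq2 called 1 each and leaving out 1 animal gave 0 to 1. Kcna7's uncalled change with cold in controls (0.04) was -0.0859 with the covariate, -0.14 without controls 1 and 2, -0.16 without the 7 libraries, -0.28 without both, and -0.0674 to 0.13 leaving out 1 animal; at room temperature its knockout change was -0.0822 without both. Weak within-group relations turned sign: Kcna7 to 0.0436 without the 2 farthest rats and 0.0415 without controls 1 and 2, and Ntrk2 to 0.0465 and principal component 1 to 0.0422 without controls 1 and 2. The causes were not tested. At the mean count of a group, counting error alone is 18.1% to 24.7% of an animal's Ntf4 level.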

Other observations

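With group means removed, the genes whose log2 level most followed Ntf4 over the 31 rats were Lmod1, a leiomodin of smooth muscle (r = 0.57), Rpn2, a subunit of the complex that adds sugars to proteins (0.52), Wrb (0.51) and the selenoprotein gene Msrb1 (0.50). Cox6a2, the muscle form of a cytochrome c oxidase subunit (0.49), Myoz1 (0.48), Edf1 (0.48) and the mitochondrial ribosomal gene Mrpl37 (0.47) came next. The lowest were Galnt5 (-0.57), Akr1c14 (-0.55), Cyth3 (-0.55) and Ptprd (-0.54). Over all 6685 genes the 5th and 95th percentiles of this r were -0.25 and 0.26, so these are the ends of a broad spread. Msrb1 went the other way over all rats (r = -0.21).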
